A study of Caenorhabditis elegans with 2 samples.

Results

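The genes described here encode the proteasome, the ubiquitin-conjugating enzymes and the unfoldase CDC-48 of Caenorhabditis elegans. They were chosen by symbol from 19973 protein-coding genes on the nuclear chromosomes (Ensembl release 115, WBcel235, the assembly also called ce11): every pas, pbs, rpt, rpn or ubc gene with a number, together with cdc-48.1 and cdc-48.2. This gave 56 genes, of which 14 encode the core particle, 19 the regulatory particle, 21 are ubc genes and 2 are cdc-48 genes. The rule itself uses no measured value. The animals were whole L4 hermaphrodites of strain OP195, collected 56 hours after starved L1 larvae were released from synchronisation. They carried RBR-2, a KDM5-family demethylase of methylated lysine on histone H3, fused at its C terminus to GFP and FLAG. The labels name neither the promoter of the fusion nor a strain without it. Chromatin from 2 biological replicates of this single group was immunoprecipitated and sequenced. One label names an antibody to GFP and another names rbr-2, so a part of the signal may come from untagged protein, and this was not tested.

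The proteasome is a protease that degrades proteins tagged with ubiquitin. Its barrel-shaped core particle has outer rings of alpha subunits (pas genes) and inner rings of beta subunits (pbs genes), some of which cut peptide bonds. The regulatory particle caps the barrel: its base holds ATPases (rpt genes) that unfold the substrate together with scaffold and ubiquitin-receptor subunits, and its lid removes ubiquitin. Ubiquitin-conjugating enzymes, or E2 enzymes, receive ubiquitin from an E1 enzyme and pass it to a substrate with the help of an E3 ligase. Some E2 enzymes carry the related modifiers SUMO or NEDD8. CDC-48, known as p97 in mammals, extracts ubiquitinated proteins from membranes and complexes. In worms the transcription factor SKN-1 is known to activate proteasome genes when proteasome function is impaired.

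The sequences below are the 151 bases centred on the peak summit of 8 of these genes, read 5′ to 3′ on the strand of the gene from the RefSeq ce11 genome. The first 5 hold an 8-base word described further on, and rpn-3 has the strongest peak of any proteasome gene. The last 2, ubc-6 and ubc-9, are examples of ubc peaks. GC content of the printed bases was 53% at ubc-6 and 47% at ubc-9, against 47.7% at pbs-1 and 35.8% at cdc-48.1. Capitals mark GTCAT or ATCAT, called here the SKN-1 core word, on either strand, extended where the flanking bases complete the longer SKN-1 word.
cdc-48.1 (chrII:10563511-10563661, minus strand): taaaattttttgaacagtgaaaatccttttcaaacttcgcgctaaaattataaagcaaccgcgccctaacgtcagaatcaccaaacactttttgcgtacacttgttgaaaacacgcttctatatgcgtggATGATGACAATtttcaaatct
pbs-1 (chrIV:1709856-1710006, minus strand): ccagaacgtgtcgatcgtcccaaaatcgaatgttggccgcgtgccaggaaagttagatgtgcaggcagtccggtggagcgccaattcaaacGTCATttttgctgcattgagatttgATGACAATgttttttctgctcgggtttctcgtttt
rpn-2 (chrIII:6198800-6198950, plus strand): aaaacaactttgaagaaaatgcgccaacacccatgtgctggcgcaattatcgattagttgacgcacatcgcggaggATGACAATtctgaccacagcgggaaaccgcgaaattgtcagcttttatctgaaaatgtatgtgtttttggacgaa
rpn-12 (chrII:11652891-11653041, plus strand): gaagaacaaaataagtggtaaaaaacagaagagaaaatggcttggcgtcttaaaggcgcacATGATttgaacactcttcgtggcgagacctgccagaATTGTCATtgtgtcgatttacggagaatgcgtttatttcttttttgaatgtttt
rpt-2 (chrV:6017754-6017904, minus strand): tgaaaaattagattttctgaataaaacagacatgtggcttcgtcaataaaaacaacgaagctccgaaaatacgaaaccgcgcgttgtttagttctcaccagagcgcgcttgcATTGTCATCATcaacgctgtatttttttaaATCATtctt
rpn-3 (chrIII:8447079-8447229, plus strand): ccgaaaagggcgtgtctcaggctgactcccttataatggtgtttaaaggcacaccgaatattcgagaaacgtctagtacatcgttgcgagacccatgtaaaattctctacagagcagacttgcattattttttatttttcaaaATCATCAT
ubc-6 (chrII:7478837-7478987, plus strand): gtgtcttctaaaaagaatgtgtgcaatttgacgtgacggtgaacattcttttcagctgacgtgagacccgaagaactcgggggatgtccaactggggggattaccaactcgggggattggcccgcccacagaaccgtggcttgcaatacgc
ubc-9 (chrIV:4650712-4650862, plus strand): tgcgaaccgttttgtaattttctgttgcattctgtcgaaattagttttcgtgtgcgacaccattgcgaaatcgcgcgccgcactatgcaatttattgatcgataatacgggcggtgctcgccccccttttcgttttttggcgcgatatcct

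A gene was called bound when the summit of a peak in the optimal list, which holds the 3442 peaks that passed the authors' reproducibility procedure, lay within 500 bp of its annotated 5′ end. RBR-2-GFP was found at 22 of the 56 genes (39.3%), against 9.46% of all protein-coding genes (1890 of 19973). The regulatory particle had 10 of 19 genes bound (52.6%), the ubc family 7 of 21 (33.3%), the core particle 4 of 14 (28.6%) and the cdc-48 pair 1 of 2. With replicate 1 alone the regulatory particle had 8 of 19 genes and the core particle 6 of 14, nearly equal shares. With replicate 2 alone they had 10 of 19 and 3 of 14. The study has 1 group and genes are not replicates, so the classes are compared by count with no test.

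Weaker signal was more widespread. The pooled list adds background regions to the peaks, and 47 of the 56 genes (83.9%) had one of its 30000 regions in the same window, against 33.1% of all genes. This was so for 13 of 14 core particle, 16 of 19 regulatory particle and 17 of 21 ubc genes. The median signal of the bound genes was 140.1, against 125.4 for the other bound protein-coding genes. Signal is the deposited strength of a region as the peak caller gave it, and is comparable within a list only. Whole animals were used, so strong binding in few cells and weak binding in many cannot be told apart.

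**Figure D1:**
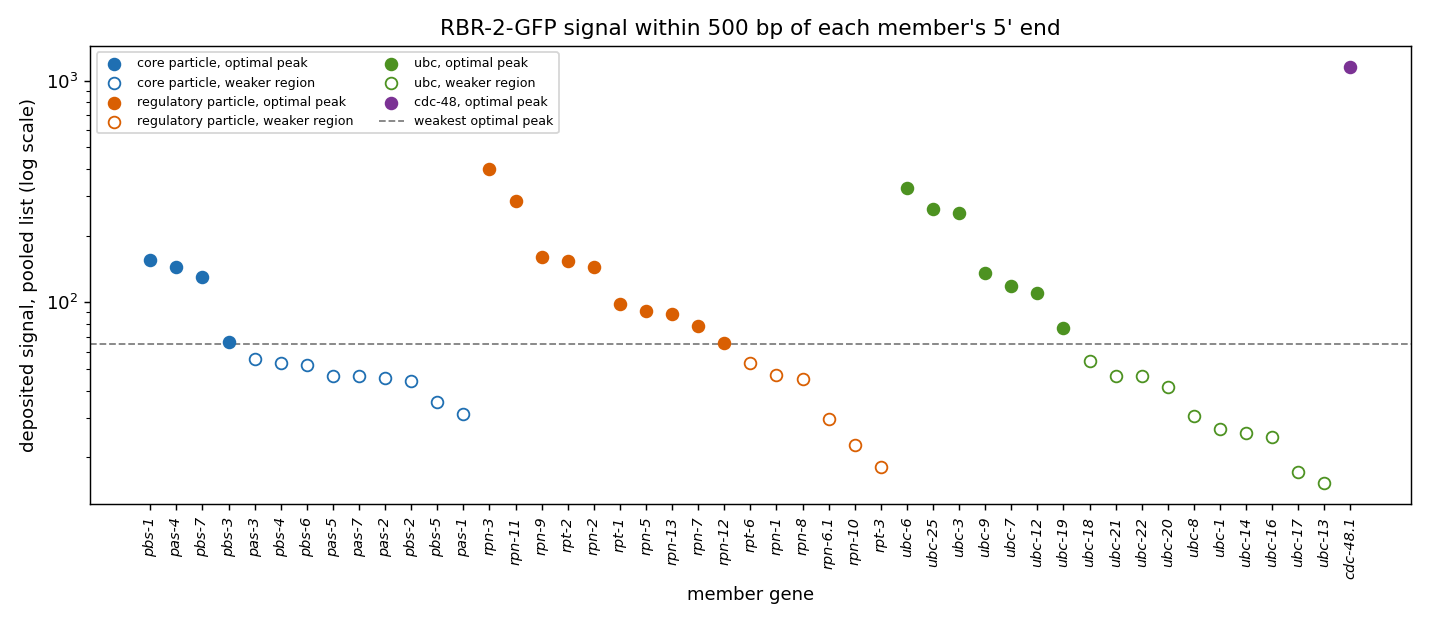
Deposited signal in the pooled list (log axis) of the strongest region within 500 bp of the 5′ end, for the 47 genes that had one, grouped by class. Filled points are peaks of the optimal list, open points weaker regions, and the dashed line is the weakest optimal peak (65.2); cdc-48.1 stands apart at 1154.

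The strongest peak of the set lay at cdc-48.1. Its signal was 526 in replicate 1 and 629 in replicate 2, where it ranked 12 and 17. In the optimal list it had a signal of 1154 and ranked 15 of 3442 (chromosome II, 10563405 to 10563755), with its summit in intergenic DNA 179 bp upstream of the 5′ end. No other protein-coding 5′ end lay within 500 bp of that summit. Its paralog cdc-48.2, which encodes a closely similar ATPase, had no region within 500 bp in the pooled list or in either replicate, and the nearest optimal summit was 6912 bp away. The pair thus held a gene near the top of the list and a gene with no region at all.

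Of the lid genes of the regulatory particle, 6 of 9 were bound, with 4 of 9 among the strongest regions of replicate 1 and 5 of 9 in replicate 2. The lid subunit gene rpn-3 had a signal of 182 in replicate 1 and 219 in replicate 2, ranks 168 and 156. Its optimal peak had a signal of 399.8 (chromosome III, 8447002 to 8447299, summit 199 bp upstream), and lay between rpn-3 and hsp-110, a chaperone gene. Next came rpn-11, which encodes the deubiquitinase of the lid. It had signals of 123 and 159 in replicates 1 and 2 (ranks 406 and 312) and 286 in the optimal list, with its summit 4 bp upstream of the 5′ end, the closest of all 22. Both genes ranked among the strongest 10% of optimal peaks.

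The other 4 bound lid genes had weaker peaks. The peak at rpn-9, shared with T06D8.9, had signals of 79.1 and 75.1 in replicates 1 and 2 (ranks 965 and 1278) and 161 in the optimal list, 250 bp upstream. At rpn-5 the signals were 37.2, 52.9 and 91.3 in the same order, with the summit 23 bp upstream and the 5′ end of scc-1, a cohesin subunit gene, in the window. The peak of rpn-7 (29.4, 42.8 and 77.9) was 392 bp upstream, the farthest of the set, and closer to F49C12.9. Weakest of all was rpn-12 (65.4, rank 3426), whose peak was shared with the divergent gene rad-23, encoding a shuttle that brings ubiquitinated proteins to the proteasome. The rpn-12 region ranked 3620 in replicate 1 and 4801 in replicate 2, so neither replicate held it among its own 3442 strongest. Of the 3 unbound lid genes, rpn-8 had a pooled region of signal 45.2 and rpn-6.1 one of 29.7. The remaining gene, rpn-6.2, a paralog of rpn-6.1, had none.

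In the base, 2 of 4 scaffold and receptor genes were bound, as in each replicate alone. Of the 6 ATPase genes, 2 were bound, with 2 for replicate 1 alone and 3 for replicate 2 alone. The lid share was below the scaffold and receptor share with replicate 1 (44.4% against 50%) and above it with replicate 2 (55.6% against 50%). Against the ATPase genes, the lid share was the higher with either replicate (ATPase shares 33.3% and 50%). The scaffold gene rpn-2 had signals of 81.6 and 61.7 in replicates 1 and 2 (ranks 909 and 1693) and 144 in the optimal list, 309 bp upstream and shared with C23G10.7. The ubiquitin-receptor gene rpn-13 had signals of 38.5, 45.3 and 88.6, with its summit 310 bp upstream, while the scaffold gene rpn-1 (47.2) and the receptor gene rpn-10 (22.8) had only weaker pooled regions. Of the ATPase genes, rpt-2 had signals of 80.6 and 74.7 in the replicates and 154 in the optimal list, and rpt-1 had 56.6, 38.8 and 98.0. Their summits lay 160 and 138 bp upstream. The rpt-2 summit was closer to aps-1, an adaptor complex gene, and lay inside the noncoding RNA gene F29G9.10. Weaker pooled regions lay at rpt-6 (53.2) and rpt-3 (18.1), and none at rpt-4 or rpt-5. When the starts of all transcripts were used, rpt-4 was bound as well.

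The core particle had modest peaks, with signals from 66.4 to 156, all ranked below 1000. The alpha ring had 1 bound gene of 7, pas-4, with signals of 63.5 and 82.2 in replicates 1 and 2 and 144.7 in the optimal list, with its summit 111 bp upstream. The 5′ end of rpb-3, an RNA polymerase II subunit gene, also lay within 500 bp of that summit. The summit was inside the noncoding RNA gene C36B1.16. The beta ring had 3 of 7. At pbs-1, a catalytic subunit gene, the signals were 66.0, 91.1 and 156, and at pbs-7 they were 48.6, 78.4 and 130, with summits 186 and 118 bp upstream. Both peaks were shared with divergent genes, K08D12.3 and F39H11.1. The pbs-3 peak (32.98, 29.69 and 66.38, optimal rank 3370, 129 bp upstream) was the only one of the 22 with its summit in an annotated transcript of a coding gene, the 3′ UTR of ulp-2, which encodes a SUMO protease and ends 22 bp upstream. Of the 10 unbound core genes, 9 had pooled regions with signals from 31.3 (pas-1) to 55.4 (pas-3), and pas-6 had no region in any list.

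Peaks at ubc genes covered E2 enzymes for ubiquitin, SUMO and NEDD8. The strongest was at ubc-6, a homolog of an endoplasmic reticulum E2 of yeast, with signals of 167 and 159 in replicates 1 and 2 and 329 in the optimal list. It was the only one of the 22 genes with a second optimal summit in its window (signal 163, 73 bp upstream). Close behind were ubc-25, a homolog of the UBE2Q family, with signals of 147, 118 and 262, and ubc-3, a homolog of the cell cycle enzyme CDC34, with 118, 137 and 252. The SUMO enzyme gene ubc-9 followed (65.5, 81.1 and 136), then ubc-7 (48.29, 67.26 and 118.1), the NEDD8 enzyme gene ubc-12 (49.1, 62.1 and 110) and ubc-19 (34.0, 34.1 and 76.5). The summits at ubc-12 and ubc-19 were closer to the genes rbm-3.2 and Y69H2.7.

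The other 14 ubc genes were unbound. Pooled regions outside the optimal list lay at 10 of them, with signals from 15.3 at ubc-13, whose product builds ubiquitin chains in DNA repair, to 54.1 at ubc-18. Among these were ubc-1, a homolog of RAD6 (26.8), and the divergent pair ubc-21 and ubc-22 on the X chromosome, which shared a region (46.4). No region of the pooled list lay at ubc-15, ubc-23, ubc-24 or ubc-26. None of the 4 ubc genes on X was bound, against 9.04% of all genes of that chromosome.

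Replicates ranked these peaks alike. Of the 22 bound genes, 18 had a region among the 3442 strongest of both replicates, 2 of replicate 1 only (pbs-3 and ubc-19), 1 of replicate 2 only (rpn-7) and 1 of neither (rpn-12). The replicate ranks of 18 genes were within 1.5 times of each other, and the better rank was in replicate 1 for 10 genes and in replicate 2 for 12. Of the 34 unbound genes, pbs-2 (signal 33.4) and pbs-4 (signal 33.6) were among the strongest of replicate 1 only, and rpt-6 (signal 37.3) of replicate 2 only. Because the authors built the optimal list out of these same lists, the match between replicates is no separate check of it.

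**Figure D2:**
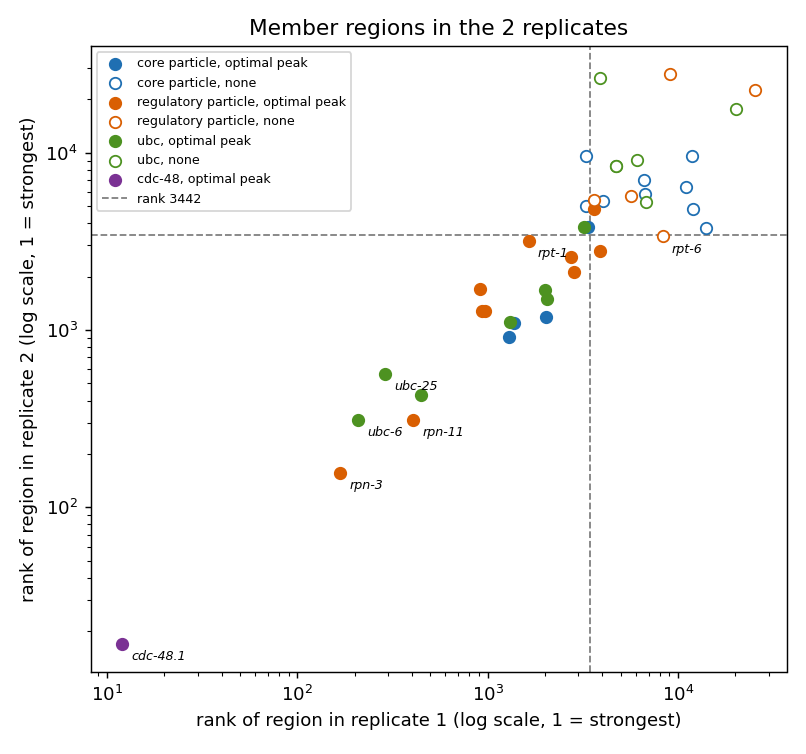
Rank of the strongest region within 500 bp of the 5′ end in replicate 1 (x) and replicate 2 (y), both log axes, for genes with a region in both lists; filled points have an optimal peak and open points none, and dashed lines mark rank 3442. The bound genes lie along the diagonal from cdc-48.1 (ranks 12 and 17) to rpn-12 (3620 and 4801).

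Near the thresholds the separation was small. The weakest bound genes were rpn-12 (65.4) and pbs-3 (66.4), and the strongest unbound regions lay at pas-3 (55.4), ubc-18 (54.1), rpt-6 (53.2) and pbs-4 (53.0). By distance, an optimal summit lay 516 bp from the 5′ end of rpt-6, 679 bp from rpt-3, 799 bp from pas-1 and 951 bp from pas-5, and these 4 became bound within 1000 bp. For 21 of the 34 unbound genes the nearest optimal summit was over 5000 bp away.

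All 22 summits lay upstream of the gene, and 21 of them in intergenic DNA. The median position was −192.5 bp (range −392 to −4 bp, negative upstream), against −181 bp for all bound genes, of which 1702 of 1890 had the summit upstream. Most summits, 16 of 22, were 100 to 300 bp from the 5′ end. They lay farther out at ubc genes, with a median of −269 bp, compared with −179.5 bp for the regulatory particle and −123.5 bp for the core particle. Within 250 bp, only 2 ubc genes remained bound (ubc-6, by its second summit, and ubc-19), while all 4 core particle genes did.

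**Figure D3:**
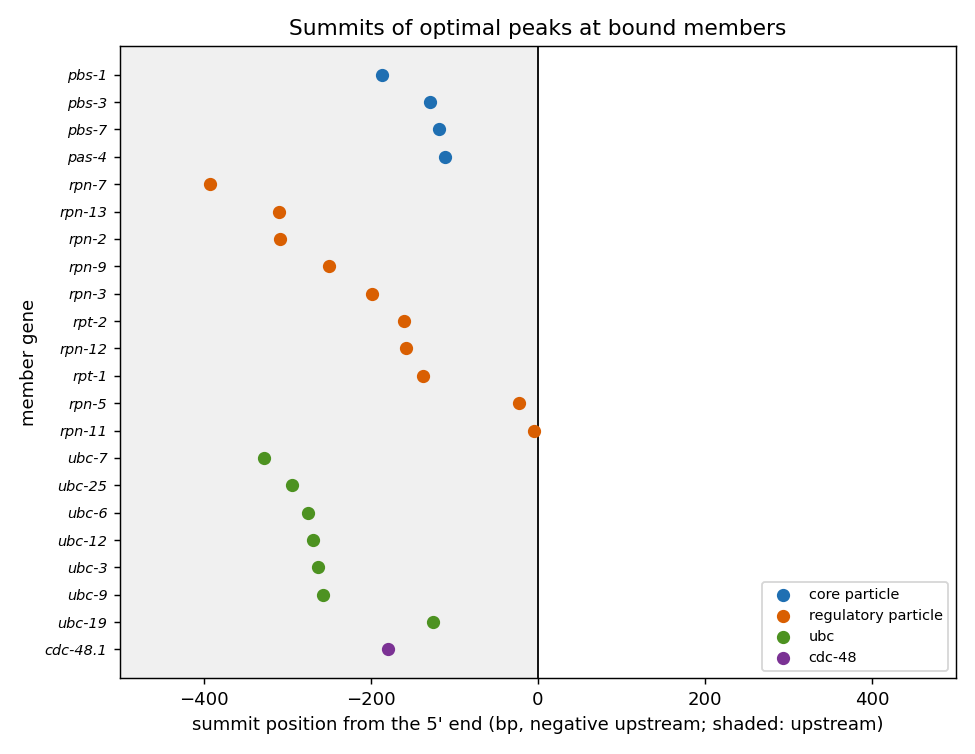
Position of the strongest optimal summit relative to the annotated 5′ end (bp, negative upstream) for each of the 22 bound genes, coloured by class. All points lie in the shaded upstream side, from 392 bp (rpn-7) to 4 bp (rpn-11).

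Many of these genes have a close divergent neighbour, and the peak often lay between the pair. The upstream coding neighbour ran in the opposite direction within 1000 bp for 29 of the 56 genes (51.8%), against 19.9% of all genes, and 13 of these 29 were bound (44.8%, against 22.8% of all such genes). Of the 13 genes with a neighbour on the same strand within 500 bp, the spacing seen in worm operons, 4 were bound (30.8%, against 6.80%). Of the remaining 14, 5 were bound (35.7%, against 5.92%). The share was thus above that of all genes in each arrangement. At 13 of the 22 peaks the window held another 5′ end, and at 4 the other gene was nearer, so the target of those peaks cannot be told apart. For the 9 unbound genes with a close same-strand neighbour, the first gene of the run was bound in 0 cases, against 19.8% of all such genes.

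**Figure D4:**
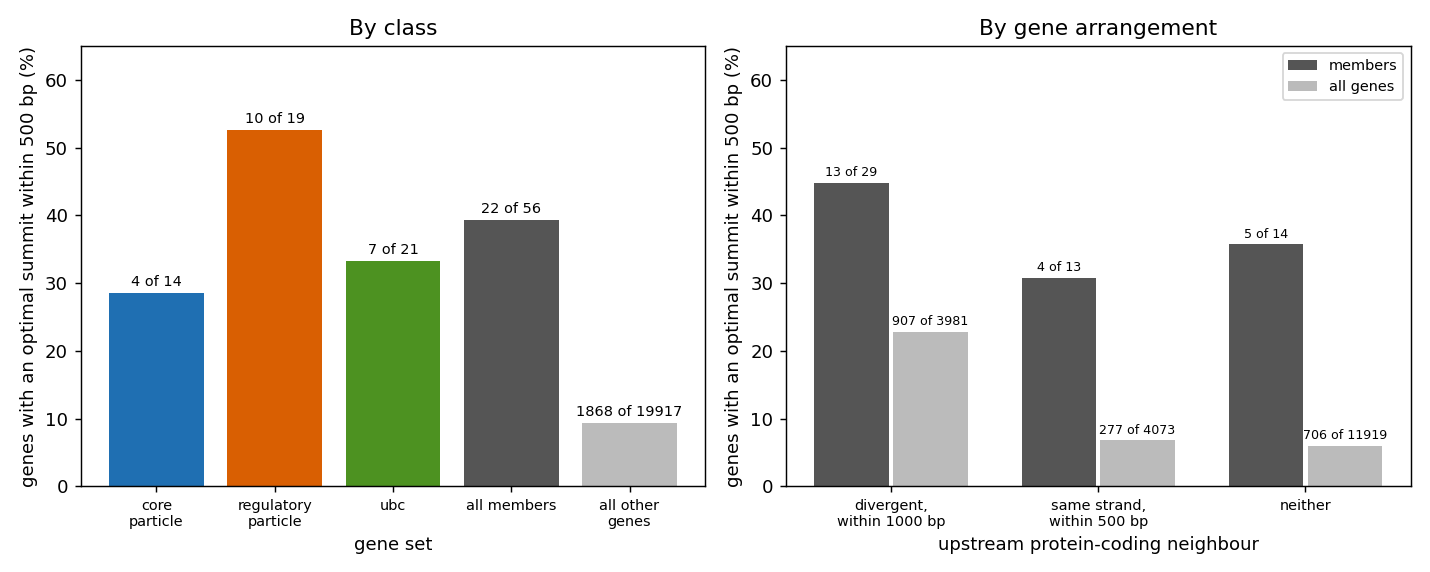
Left, percent of genes with an optimal summit within 500 bp of the 5′ end for the 3 larger classes, all 56 genes and all other protein-coding genes. Right, the same share for the 56 genes (dark) and all genes (light) by the position of the upstream coding neighbour; bars give counts above them, and the 56 genes stand above all genes in each of the 3 arrangements.

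The DNA under the peaks differed in GC content between proteasome and ubc genes at a window of 200 bp. In the 200 bp around the summit, the 15 peaks at proteasome genes and cdc-48.1 had a median GC content of 35% (range 32.5 to 45.5%), and only 2 were richer in GC than flanks 500 to 700 bp away (rpn-7 and rpn-11). The 7 ubc peaks had a median of 47.5% (range 40 to 55%), and all 7 were richer in GC than their flanks. Among all 1513 optimal peaks within 500 bp of a coding 5′ end, the median was 42.5%, and 1044 exceeded their flanks. The ranges of both classes overlap between 40 and 45.5%. The position of proteasome peaks relative to their flanks depended on the window. In the 151 bases centred on the summit, GC content was 47.7% at pbs-1, 43.7% at rpn-2 and 40.4% at rpt-1. These values exceed the flanks of the same peaks (43%, 40.5% and 36.2%). At rpn-12 and rpn-13 it stayed below the flanks (38.4% against 46.2%, and 39.1% against 44.5%).

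**Figure D5:**
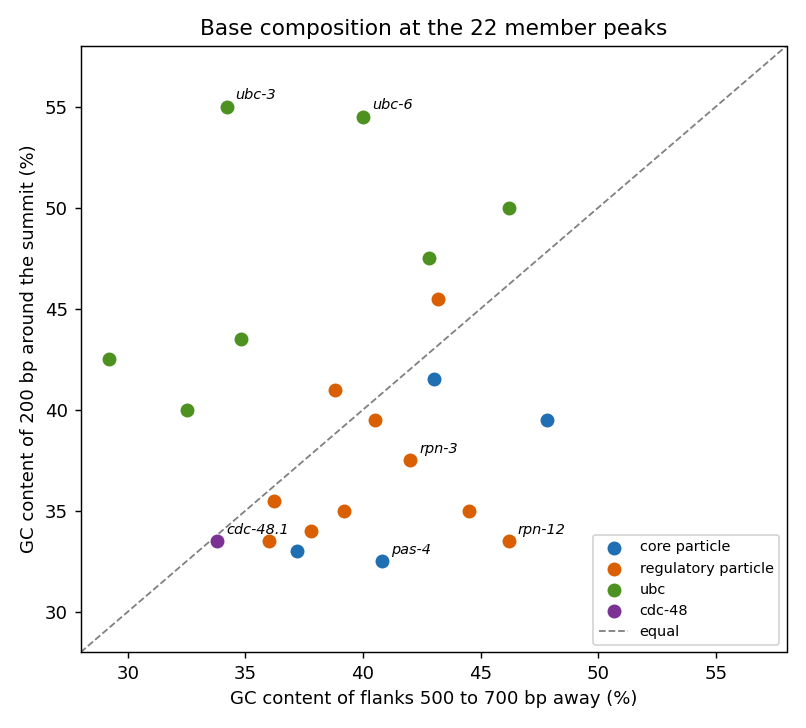
GC content (%) of the 200 bp around the summit against that of flanks 500 to 700 bp away, for the 22 member peaks coloured by class; the dashed line marks equality. All 7 ubc peaks lie above the line, and 13 of the 15 peaks at proteasome genes and cdc-48.1 lie below it.

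Words of the SKN-1 type were counted around the summits. The SKN-1 core word, GTCAT or ATCAT on either strand, occurred in the same 200 bp at 13 of 15 proteasome and cdc-48.1 peaks (86.7%), against 2 of 7 ubc peaks and 39% of all 1513 peaks near a 5′ end. This contrast depended on the window: in 400 bp the word occurred at 13 of 15 proteasome and cdc-48.1 peaks, at 7 of 7 ubc peaks and at 70.7% of all peaks near a 5′ end, which turns the order of the classes round. In promoters, taken as 250 bp before to 50 bp after the 5′ end, it was found in 82.9% of proteasome and cdc-48 genes, 81% of ubc genes and 72.1% of all genes. In the 200 bp window, only pbs-3 and rpn-9 lacked it among the 15. Of other peaks near a 5′ end whose GC content fell in the range of the 15, 40.6% (365 of 900) held it. In the weaker pooled regions of unbound proteasome genes it occurred in 14 of 15, and in those of unbound ubc genes in 6 of 9, against 52.3% of all weaker regions near a 5′ end. Bound and unbound proteasome genes thus held it at similar counts, 13 of 15 and 14 of 15.

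A longer word recurred. In 6 of the 15 peaks (40%) the core word was part of ATTGTCAT, at cdc-48.1, pbs-1, rpn-2, rpn-11, rpn-12 and rpt-2, as the capitals above show for 5 of them, 4 to 62 bp from the summit. It occurred in 0 of 7 ubc peaks, in 2 of the 15 weaker proteasome regions, in 1.26% of all peaks near a 5′ end (19 of 1513) and in 11 of 900 other peaks of the same GC range (1.22%). The 6 proteasome and cdc-48.1 peaks thus made up 6 of those 19. Another of the 19 lay at wdr-23, which encodes a repressor of SKN-1 (signal 161). In promoters the longer word was found in 6 of 35 proteasome and cdc-48 genes (17.1%), 0 of 21 ubc genes and 1.93% of all genes. ATTGTCAT is 1 of 8 words that fit the published SKN-1 consensus (AATATCAT, AATGTCAT, ATTATCAT, ATTGTCAT, TATATCAT, TATGTCAT, TTTATCAT and TTTGTCAT). Any of the 8 occurred in 6 of the 15 peaks and 6.08% of all peaks near a 5′ end. It was also found in 5 of the 15 weaker proteasome regions and 0 of 9 weaker ubc regions, against 9.64% of all weaker regions near a 5′ end. In promoters the shares were 34.3% of proteasome and cdc-48 genes (12 of 35), 9.52% of ubc genes and 16.5% of all genes. Words were counted on both strands, and each count of the 8 words includes ATTGTCAT. The longer words were picked after the sequences had been seen, and a match is not evidence that SKN-1 binds there.

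Of the other words counted in the 22 peaks, GAGAGA occurred in 2, both at ubc genes (ubc-3 and ubc-25), against 34% of all peaks near a 5′ end. TTTTTTTT occurred in none, against 13.7%, and CACGTG, the E-box, in none, against 4.36%. GAGAGA occurred in 0 of 15 proteasome and cdc-48.1 peaks and in 2 of 7 ubc peaks (28.6%). In the weaker pooled regions it occurred at 6 of 15 for proteasome genes and 1 of 9 for ubc genes, against 18.6% of all weaker regions near a 5′ end. In promoters it was found in 21.4% of the 56 genes and 21.8% of all genes.

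Other genes of the pathway were bound less evenly, in lists compared by count with the 9.46% of all genes. Of 16 ubiquitin, E1 and E2-related genes, 5 were bound, led by the ubiquitin gene ubq-2 (signal 196) and uba-1, the E1 gene (126), followed by the polyubiquitin gene ubq-1 (115.5) and uba-2, the E1 gene for SUMO (95.6). Of 25 genes for proteasome-associated proteins, shuttles and deubiquitinases, 7 were bound, led by ubql-1, a ubiquilin (269), then usp-48 (138), aip-1 (126) and usp-14, a deubiquitinase of the proteasome (105). The strongest region within 500 bp of the ubql-1 5′ end ranked 267 in replicate 1 but 3012 in replicate 2. The optimal summit at ubql-1 lay near the edge of that window. Whether both ranks belong to the same peak was not tested. Of 18 genes for CDC-48 cofactors and degradation from the endoplasmic reticulum, 4 were bound, ubxn-2 (188), ufd-3 (148), ufd-2 (142) and ubxn-1 (65.7).

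Ligase genes stood nearer to the background. Cullin ligase and anaphase-promoting complex genes had 5 of 48 bound (10.4%), led by gfi-3 (238), sel-10, an F-box protein gene (177), and cul-3 (102). The other E3 ligase genes had 5 of 31 (16.1%), led by wwp-1 (485) and brc-1, the BRCA1 homolog (266). Of 6 regulators of proteasome gene transcription, only wdr-23 was bound. The gene skn-1 itself had a weaker pooled region (45.5), as did sel-1 (40.7), and png-1 and ddi-1, whose products activate SKN-1A, had none.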

How the data were processed

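RBR-2-GFP ChIP-seq of whole L4 worms was analysed from 4 deposited peak lists on ce11: 1 for each replicate, 1 pooled and 1 optimal. Per the text deposited with the files, the replicate and pooled lists were called against a control and hold peaks with background regions, and the optimal list derives from them by the irreproducible discovery rate procedure. The deposited signal is the peak caller's value per region, in column 7. Aligner, caller, versions and threshold: not given in the sources used here. Control reads were not analysed, and depth is unknown. The ce10 lists were not used.

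Regions were ranked by signal within each list, and replicates were compared by their 3442 strongest regions. Summits were assigned to every coding 5′ end within 500 bp, and the strongest was kept. The assignment was tested on simulated data. Python 3.11.15 and numpy 2.4.6 were used. GC content and words were read from the RefSeq genome of the same assembly. The members and pathway lists were chosen with earlier results of these data known. Every bound member is named, with up to 4 genes per pathway list, and genes singled out for other reasons were chosen after their values were seen. The names ecpas-1 and trim-9 matched no gene. Alternatives were windows of 250 and 1000 bp, the nearest gene only, all transcript starts, the stronger 50% of the list and each replicate alone. Sequence windows of 100 and 400 bp and the longer words were added after the data were seen. With 1 group and 2 replicates, no test between conditions was possible.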

Additional observations from a re-analysis of the deposited data

How the results depend on the processing

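Of the 35 planned values, 4 moved by more than 1.5 times, each of them a count of bound genes. Of the 22 bound members, 14 were bound within 250 bp and 14 in the stronger 50% of the optimal list. In that stronger 50%, 5 regulatory particle genes were bound in place of 10, and within 250 bp 2 ubc genes in place of 7. Both changes follow from how these settings are built, which use fewer peaks or a narrower window. With 1 replicate left out, bound members ranged from 20 to 22, core particle genes from 3 to 6, regulatory particle genes from 8 to 10 and ubc genes from 6 to 7, and the median summit position ranged from −240 to −203.5 bp. Across all 7 settings, the share of members bound ran from 25% to 46.4%, and that of all genes from 5.32% to 12.3%. The count of ubc peaks with a core word was 1 in windows of 100 bp and 7 in windows of 400 bp, in place of 2, and that of proteasome and cdc-48.1 peaks was 9 and 13, in place of 13, where all peaks near a 5′ end had it in 19.9% and 70.7%. In each replicate's own summits the counts were 12 to 13 and 2 to 3. No paired analysis was possible because the study has 1 group. Depth is unknown, so regions just under the weakest optimal signal of 65.2 cannot be read as unbound with any stated precision.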
